A study of Mus musculus with 6 samples.

Results

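The insulin-like growth factor (IGF) system genes described here are the ligand genes Igf1 and Igf2, the receptor genes Igf1r, Insr and Igf2r, and the binding protein genes Igfbp2, Igfbp3, Igfbp4, Igfbp5 and Igfbp7. These 10 genes, of 37991 in the table, were chosen by name with their library-size normalised levels in these same libraries already known. Their levels and their differences between the sexes are therefore given as a description, and no test result below is read as support for them. RNA came from bone endothelial cells (BECs) isolated from the tibia of c57/Bl6 mice aged 12 weeks, with 3 libraries from females and 3 from males, and the cells had been purified through their endomucin, a surface sialomucin of bone capillaries and sinusoids. The study compared the sexes to find out how BEC transcripts differ between them. The labels name no allele, transgene or treatment in either group, and the libraries were those of the samples with the best RNA of a larger set. The labels do not say whether the samples of a sex were separate animals, so p-values measure the spread between these samples.

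IGF1 and IGF2 are small secreted proteins that act through the tyrosine kinase receptor IGF1R and, with different affinities, through the insulin receptor. IGF2R has no kinase and carries IGF2 and mannose 6-phosphate tagged enzymes to lysosomes. In serum and matrix most IGF is held by binding proteins, which prolong its life or keep it from the receptor until proteases release it. In bone, IGF1 comes from the liver through the blood and from local cells, and it supports osteoblasts and growth.

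Total counts lay between 47678806 and 58325745 per library, at which 3 counts correspond to 0.0477 to 0.0639 CPM (counts scaled to library size with edgeR's TMM factors). This floor covers counting error only, as PCR copies were not marked by molecular identifiers. Transcripts of the endothelial label were present but sparse. Emcn, which encodes endomucin, had 8.68, 5.35 and 10.5 CPM in female replicates 1, 2 and 3 and 4.21, 3.09 and 6.73 CPM in male replicates 1, 2 and 3. Cdh5, which encodes VE-cadherin, had 31.2, 15.8 and 32.6 CPM in females and 12.6, 6.50 and 16.2 CPM in males. Summed over 20 endothelial markers, none of them at 0 in any library, reads made up 414.8 to 619.9 CPM in females and 244.9 to 384.8 CPM in males. Reads of 14 neutrophil markers made up 19190 to 23480 CPM in females and 32640 to 44460 CPM in males. For 12 macrophage markers the sums were 7355 to 8156 CPM in females and 4484 to 6285 CPM in males, and for 12 markers of CXCL12-abundant reticular (CAR) stromal cells they were 3594 to 5589 CPM and 2893 to 4955 CPM. Vcam1, with means of 1148 CPM in females and 877 CPM in males, is in both the macrophage and the CAR list, so the readouts of these lists are not independent. None of the neutrophil, macrophage or CAR markers was at 0 in any library. Reads of 10 erythroid markers made up 12150 to 17450 CPM in females and 18470 to 27150 CPM in males. The endothelial, neutrophil, macrophage and erythroid sums did not overlap between the sexes, while the CAR sums did. In such bulk libraries, fewer cells of a type and less RNA per cell cannot be told apart, and an IGF system transcript cannot be assigned to BECs or to another cell.

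All 10 genes were detected in every library. Levels are compared between genes as CPM per kilobase of the union of annotated exons, averaged over the 6 libraries. Igfbp4 ranked first, with 140.3 ± 52.5 CPM per kilobase (SD, n = 6), and Igfbp5 followed with 65.3 ± 38.4 (SD, n = 6). Igf1, the more abundant of the ligand genes, had 14.3 ± 2.698 (SD, n = 6), and Igfbp7 had 12.8 ± 4.21 (SD, n = 6). The receptor genes Igf2r and Insr came next, with 3.00 ± 0.529 and 2.72 ± 0.398 CPM per kilobase (SD, n = 6). Igfbp3 had 1.88 ± 0.415, Igfbp2 1.02 ± 0.378, Igf1r 0.672 ± 0.154 and Igf2 0.508 ± 0.302 CPM per kilobase (SD, n = 6). Neighbours in this order had ranges that did not overlap at only 2 of the 9 steps. The lowest library of Igfbp5, at 35.1 CPM per kilobase, was above the highest of Igf1, at 17.7, and the lowest of Igfbp7, at 6.62, was above the highest of Igf2r, at 3.61. Within each library the order was firmer, since Igfbp4 exceeded Igfbp5, Insr exceeded Igfbp3 and Igfbp3 exceeded Igfbp2 in 6 of 6 libraries. Igf1 exceeded Igfbp7, Igf2r exceeded Insr, Igfbp2 exceeded Igf1r and Igf1r exceeded Igf2 in 4 of 6 libraries. When the longest transcript was used as the length, Insr and Igf2r traded ranks 5 and 6 and the other 8 genes kept theirs.

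**Figure D1:**
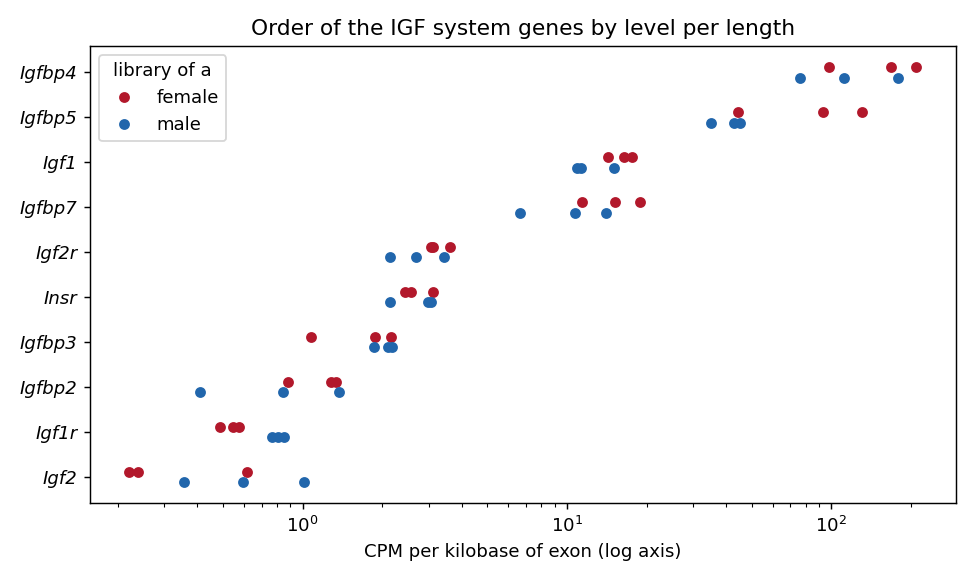
Level of each IGF system gene as CPM per kilobase of exon on a log axis, with 1 point per library, red for the 3 female and blue for the 3 male libraries. Igfbp4 and Igfbp5 lie at 35.1 or above in all libraries and Igf1r and Igf2 have the lowest means, with overlap between Igfbp2, Igf1r and Igf2.

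Of the 10 genes, 9 had a promoter entry in RefSeq for the build GRCm38.p6. The 250 bases before the annotated start are shown for the 3 most abundant binding protein genes, for Igfbp2 because its level varied between libraries much as those of Igfbp4 and Igfbp7 did, for Igf1 as the main ligand gene, and for Igf1r because its sexes did not overlap. Capitals mark matches, on either strand, to the letters TATAAA (the core promoter box bound by TBP), CCAAT (the box bound by NF-Y), GGGCGG (the GC box bound by Sp1) or GTAAACA (a FoxO site, bound by factors that insulin and IGF signalling keep out of the nucleus), and no match printed here overlaps another.
Igfbp4, chr11:99040994-99041243, plus strand: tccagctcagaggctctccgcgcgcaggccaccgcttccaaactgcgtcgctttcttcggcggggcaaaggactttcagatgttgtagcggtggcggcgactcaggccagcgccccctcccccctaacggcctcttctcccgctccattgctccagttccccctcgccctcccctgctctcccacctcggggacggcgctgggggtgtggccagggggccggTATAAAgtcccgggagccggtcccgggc
Igfbp5, chr1:72874866-72875115, minus strand: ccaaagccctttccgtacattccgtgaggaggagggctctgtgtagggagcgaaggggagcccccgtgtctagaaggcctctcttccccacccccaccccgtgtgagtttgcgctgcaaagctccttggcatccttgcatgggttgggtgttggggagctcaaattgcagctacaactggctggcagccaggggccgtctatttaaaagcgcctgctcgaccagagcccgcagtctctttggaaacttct
Igfbp7, chr5:77408046-77408295, minus strand: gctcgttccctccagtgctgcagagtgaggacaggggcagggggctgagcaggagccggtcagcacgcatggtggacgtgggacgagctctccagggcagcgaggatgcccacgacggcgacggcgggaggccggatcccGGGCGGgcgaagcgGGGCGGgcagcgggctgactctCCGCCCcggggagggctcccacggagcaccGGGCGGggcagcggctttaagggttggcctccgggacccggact
Igfbp2, chr1:72824230-72824479, plus strand, first of its 2 annotated promoters: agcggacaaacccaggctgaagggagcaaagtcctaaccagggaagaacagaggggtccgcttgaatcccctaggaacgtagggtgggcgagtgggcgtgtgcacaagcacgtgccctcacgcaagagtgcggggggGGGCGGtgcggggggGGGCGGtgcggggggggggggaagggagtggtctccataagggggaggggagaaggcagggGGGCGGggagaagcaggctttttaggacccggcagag
Igf1, chr10:87860861-87861110, plus strand: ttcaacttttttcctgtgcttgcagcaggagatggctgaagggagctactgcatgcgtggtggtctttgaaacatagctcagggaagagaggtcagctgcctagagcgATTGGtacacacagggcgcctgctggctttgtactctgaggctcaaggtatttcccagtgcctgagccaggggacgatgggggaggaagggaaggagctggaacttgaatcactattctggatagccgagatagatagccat
Igf1r, chr7:67952007-67952256, plus strand: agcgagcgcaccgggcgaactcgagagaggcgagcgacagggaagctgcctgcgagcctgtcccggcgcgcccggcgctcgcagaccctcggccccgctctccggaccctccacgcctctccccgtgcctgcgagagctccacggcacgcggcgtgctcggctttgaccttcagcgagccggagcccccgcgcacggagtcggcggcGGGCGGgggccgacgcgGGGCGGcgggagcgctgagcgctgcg

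The Igfbp4 window held the only TATA box match among the 9 genes, its first base 28 bases before the start. Of 32851 mouse promoters of this length, 12.4% hold a TATA box match anywhere in the window. GC box matches numbered 4 for Igfbp7, 3 for Igfbp2 and 2 for Igf1r, and 32.7% of promoters hold at least 1. The Igf1 window held a CCAAT box match, as 33.8% of promoters do, and the Igfbp5 window held none of the 4 motifs. The FoxO letters, found in 3.17% of promoters, occurred in no window of the 9 genes, which says only that these letters are not there. The share of G and C in the windows was 77.6% for Igf1r, 74.0% for Igfbp7, 69.2% for Igfbp4, 67.2% for Igfbp2, 58.8% for Igfbp5 and 52.8% for Igf1, beside a median of 52.4% over all promoters.

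Between the sexes, none of the 10 genes was among the 8 that edgeR called (quasi-likelihood test, Benjamini-Hochberg adjusted p under 0.05), which is 0.0411% of the 19480 genes tested. At an unadjusted p under 0.05 the same test gave 3 of the 10, namely Igf1r, higher in males, and Igf1 and Igfbp5, lower in males, where 9.79% of all genes tested did so. DESeq2's Wald test called 1 of the 10, Igf1r, where it called 2.08% of the 17252 genes to which it gave an adjusted p. The libraries of males lay above those of females, without overlap, for 1 of the 10 (Igf1r), against 7.25% of all genes tested. The opposite pattern was seen for 0 of the 10, against 7.29%. The fitted log2 fold change, males over females, was above 0 for 4 of the 10 and below 0 for 6, with a median of -0.31, while the median over all genes tested was -0.00125.

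**Figure D2:**
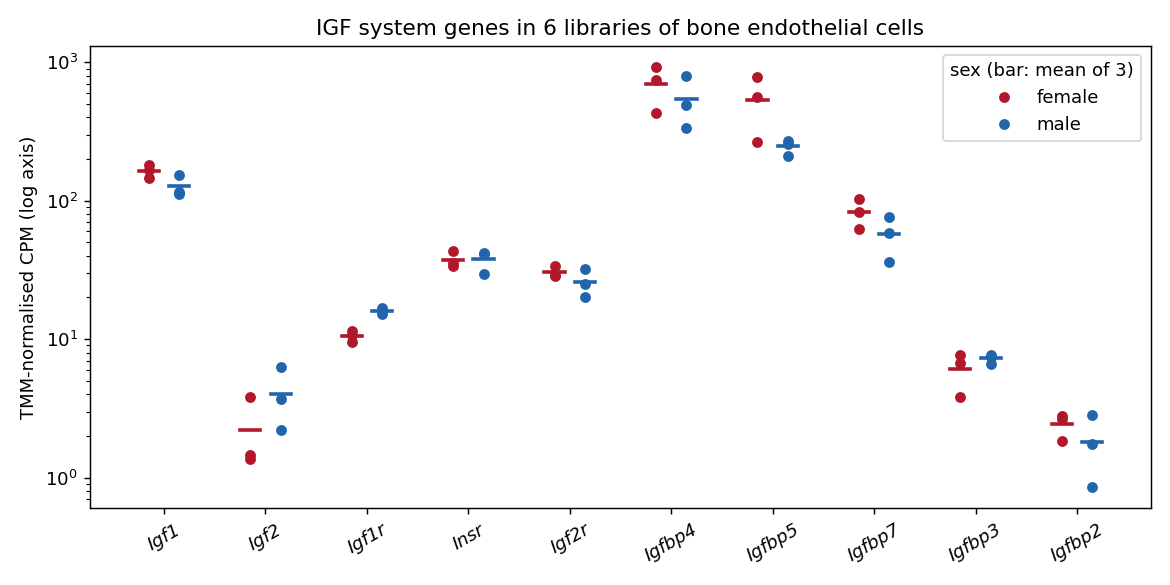
TMM-normalised CPM of each IGF system gene on a log axis, ordered as ligands, receptors and binding proteins, with 1 point per library and a bar at the mean of the 3 libraries of a sex. The male points lie apart from the female points for Igf1r alone, at 15.2 to 16.7 against 9.59 to 11.4 CPM.

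Of the ligand genes, Igf1 (ENSMUSG00000020053, chr10:87693642-87772904 on the plus strand of GRCm39) had 147, 168 and 181 CPM in female replicates 1, 2 and 3 and 116, 112 and 154 CPM in male replicates 1, 2 and 3. Male replicate 3 lay above female replicate 1, and the other male libraries lay below all females. The means were 165 ± 17.1 CPM in females and 127 ± 23.1 CPM in males (SD, n = 3 each), a log2 fold change of -0.38 with a standard error of 0.149. Its level varied little, the highest library being 1.61 times the lowest. Macrophage markers moved with it. All 12 were lower in males in the fit, with sums as given above, and C1qa, which encodes a subunit of complement C1q, had 748, 907 and 787 CPM in females and 543, 535 and 743 CPM in males. The ratio of Igf1 to C1qa, chosen after both were seen, was 0.204 ± 0.0231 in females and 0.210 ± 0.00323 in males (SD, n = 3 each), and the sexes overlapped. Among 9 marker lists, the profile of Igf1 over the 6 libraries was nearest to the mean of the macrophage list, at a root mean square (RMS) difference of 0.136 on the log2 scale, where a flat profile differs by 0.256. With the mean log2 level of the macrophage markers as a covariate, an alternative chosen after seeing the data, the log2 fold change of Igf1 was 0.056 in place of -0.38. It was -0.76 with the neutrophil score, -0.30 with the CAR score and -0.18 with the endothelial score. Since the macrophage sums did not overlap between the sexes, the markers and sex cannot be told apart.

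Igf2 (ENSMUSG00000048583, chr7:142204503-142220694, minus strand), the ligand gene best known for fetal growth and expressed from the paternal allele, was the least abundant of the 10. It had 1.46, 1.36 and 3.81 CPM in females, from 92, 72 and 179 counts, and 3.68, 2.19 and 6.26 CPM in males, from 194, 108 and 297 counts. Female replicate 3 lay above male replicates 1 and 2, so the sexes overlapped, and the highest library was 4.60 times the lowest. The log2 fold change was 0.88 with a standard error of 0.477, but it was 0.41 without male replicate 3 and 1.51 without female replicate 3. With marker scores as covariates it ranged from -0.081 (neutrophil) to 2.21 (macrophage). Per kilobase, the ratio of Igf1 to Igf2 was 60.4, 74.3 and 28.5 in females and 18.9, 30.8 and 14.8 in males, with overlap between female replicate 3 and male replicate 2.

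Among the receptor genes, Igf1r (ENSMUSG00000005533, chr7:67601518-67883416, plus strand), which encodes the main signalling receptor of both ligands, had 11.4, 9.59 and 10.8 CPM in females and 16.7, 16.0 and 15.2 CPM in males. Every male library was above every female library. The means were 10.6 ± 0.916 and 16.0 ± 0.793 CPM (SD, n = 3 each), a 1.51-fold higher male mean. The log2 fold change was 0.59 and its standard error 0.150. The adjusted p was 0.219 in edgeR's quasi-likelihood test and 0.0284 in DESeq2's Wald test, and the log2 fold change lay between 0.52 and 0.66 when any single library was dropped. Neutrophil markers moved in the same direction, 13 of 14 being higher in males in the fit, and their mean was also the nearest of the 9 lists to the Igf1r profile, at an RMS difference of 0.206 where a flat profile differs by 0.297. With their mean log2 level as a covariate, also chosen after seeing the data, the log2 fold change of Igf1r was 0.81, and the neutrophil markers and sex cannot be told apart either.

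Insr (ENSMUSG00000005534, chr8:3172061-3329647, minus strand), the insulin receptor gene, had 43.0, 33.6 and 35.4 CPM in females and 42.2, 41.3 and 29.6 CPM in males. The sexes covered much the same range, with a log2 fold change of 0.01 and a standard error of 0.161, and the highest library was 1.46 times the lowest. Igf2r (ENSMUSG00000023830, chr17:12901293-12988614, minus strand), the scavenging receptor, had 29.1, 28.6 and 33.8 CPM in females and 32.1, 20.1 and 25.1 CPM in males. Male replicate 1 lay among the females and the other males below them, and the log2 fold change was -0.24 with a standard error of 0.171. It was -0.43 without male replicate 1 and -0.09 without male replicate 2.

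Ratios between receptor genes, chosen after their levels were seen, cancel the library size. Per kilobase, Igf1r over Insr was 0.184, 0.199 and 0.213 in females and 0.276, 0.271 and 0.357 in males. Igf2r over Igf1r was 5.39, 6.28 and 6.60 in females and 4.04, 2.64 and 3.49 in males. Neither ratio overlapped between the sexes, and the means were 0.199 ± 0.0141 and 0.301 ± 0.0486 for the first and 6.09 ± 0.628 and 3.39 ± 0.703 for the second (SD, n = 3 each). In all 6 libraries Igf1r was thus the least abundant receptor gene per length, with Insr and Igf2r above it. The 2 ratios share Igf1r and are not independent of its level.

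**Figure D3:**
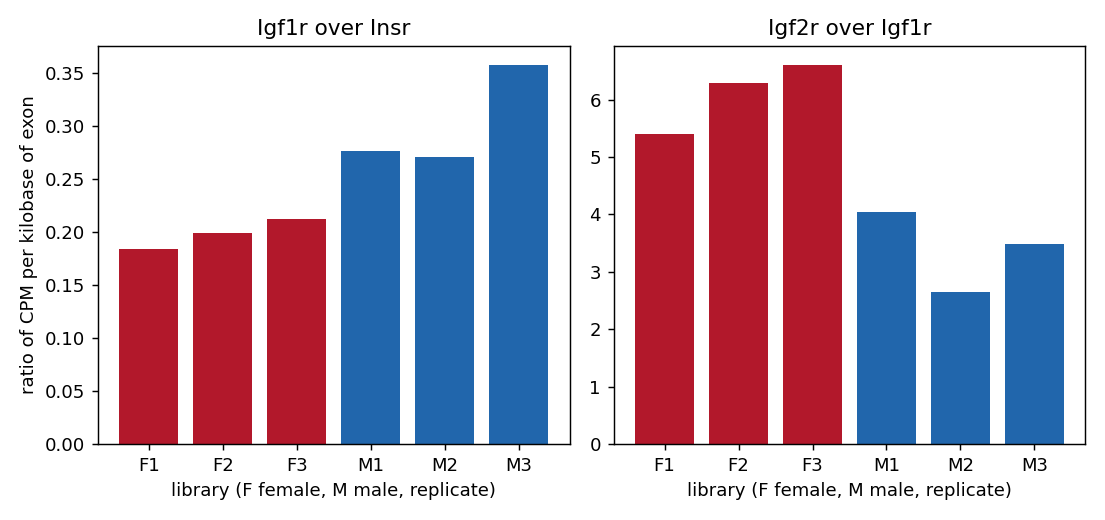
Ratios of CPM per kilobase of exon in each library (F female, M male, with the replicate number), Igf1r over Insr on the left and Igf2r over Igf1r on the right, on axes that start at 0. All male bars are above the female bars on the left, from 0.271, and below them on the right, up to 4.04.

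Of the binding protein genes, Igfbp4 (ENSMUSG00000017493, chr11:98932064-98945218, plus strand), whose product binds IGF tightly until the protease pappalysin cuts it, had 745, 432 and 926 CPM in females and 494, 337 and 790 CPM in males. The libraries of the sexes were interleaved, and the spread within a sex was as wide as the difference between them. The means were 701 ± 249.6 and 540.2 ± 230.2 CPM (SD, n = 3 each), with a log2 fold change of -0.38 and a standard error of 0.342. It was -0.76 without male replicate 3, -0.63 without female replicate 2, -0.13 without male replicate 2 and -0.12 without female replicate 3. Per kilobase, Igfbp4 made up 64.1 ± 5.66% (SD, n = 6) of the summed level of the 5 binding protein genes, from 57.7% to 74.0%.

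Igfbp5 (ENSMUSG00000026185, chr1:72897091-72914043, minus strand), the most conserved of the binding proteins and one that sticks to bone matrix, had 557, 266 and 788 CPM in females and 257, 211 and 272 CPM in males. Female replicates 1 and 3 stood above all males, and female replicate 2 lay inside the male range. The means were 537 ± 262 and 247 ± 32.0 CPM (SD, n = 3 each), 2.18-fold higher in females, with a log2 fold change of -1.12 and a standard error of 0.333. The adjusted p was 0.320 in edgeR's quasi-likelihood test and 0.179 in DESeq2's Wald test. This difference leaned on single libraries, since the log2 fold change was -1.45 without female replicate 2 and -0.74 without female replicate 3.

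Igfbp7 (ENSMUSG00000036256, chr5:77493130-77555931, minus strand), a secreted protein of vessel basement membranes that binds IGF weakly, had 82.5, 62.1 and 103 CPM in females and 58.7, 36.1 and 76.8 CPM in males. Male replicate 3 lay between the females, and the log2 fold change was -0.53 with a standard error of 0.268. It was -0.80 without male replicate 3, -0.34 without female replicate 3 and -0.29 without male replicate 2. Polr2b overlaps Igfbp7 on the opposite strand and had 2599 to 3762 counts where Igfbp7 had 1778 to 5187, so reads of the pair could be mixed if counting ignored strand, which the sources do not state. The other annotated genes that overlap the 10 and have a row in the table held at most 62 counts in any library.

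Igfbp3 (ENSMUSG00000020427, chr11:7156086-7164179, minus strand), the main carrier of IGF in serum, had 6.73, 3.84 and 7.73 CPM in females and 7.75, 6.62 and 7.48 CPM in males. Female replicate 2 was the lowest library and the rest lay close together, with a log2 fold change of 0.26 and a standard error of 0.261. It was 0.01 without female replicate 2 and 0.46 without female replicate 3. Igfbp2 (ENSMUSG00000039323, chr1:72863606-72891634, plus strand), a carrier that can also bind integrins, had 2.78, 1.84 and 2.66 CPM in females and 1.75, 0.853 and 2.85 CPM in males. Its lowest and highest libraries were both male, and the log2 fold change was -0.42 with a standard error of 0.417. It was -0.90 without male replicate 3 and -0.08 without male replicate 2. Igfbp2 and Igfbp5 lie tail to tail on chromosome 1, 5456 bases apart, with no protein-coding gene between them.

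**Figure D4:**
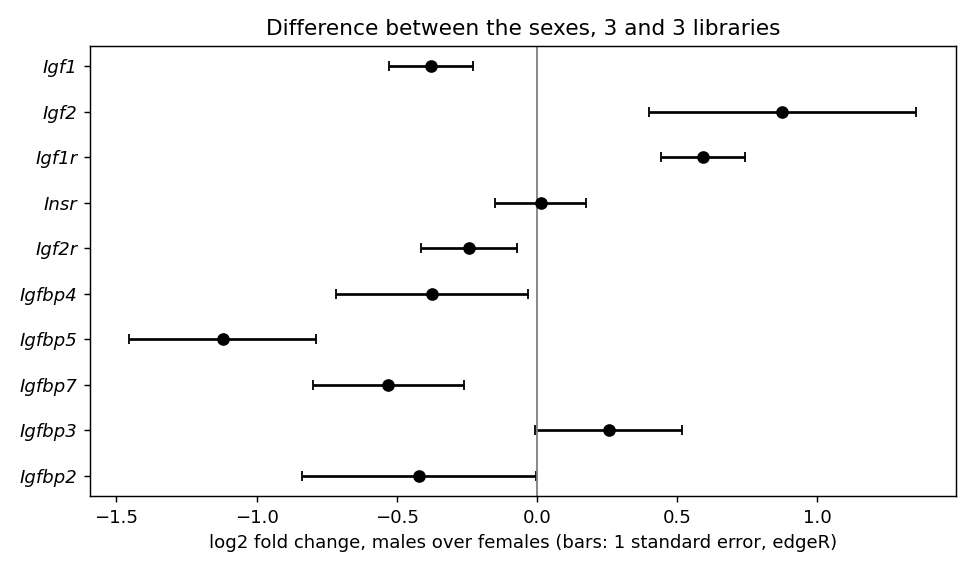
Log2 fold change of each IGF system gene, males over females, from edgeR, with bars of 1 standard error over 3 and 3 libraries. Igfbp5 lies farthest below 0, at -1.12, and Igf2 farthest above, at 0.88, with the wider bar, while Igf1r is at 0.59 with a bar of 0.150.

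Igfbp4, Igfbp7 and Igfbp2 varied between libraries in much the same way. Within each sex, all of them were lowest in replicate 2 and highest in replicate 3, except that Igfbp2 was highest in female replicate 1. Igfbp5 had this order in both sexes too, as did the endothelial markers Cdh5 and Emcn, so the order is not particular to these genes or to CAR markers. Cxcl12, the chemokine gene that names CAR cells, was ordered as Igfbp4 and Igfbp7 were, and had 2214, 1090 and 2350 CPM in females and 1352, 928 and 1924 CPM in males. The mean of the 12 CAR markers was the nearest of the 9 lists to Igfbp4, Igfbp7 and Igfbp2, at RMS differences of 0.169, 0.162 and 0.199 on the log2 scale, where flat profiles differ by 0.521, 0.472 and 0.459. The endothelial list was second nearest to each, at 0.276, 0.203 and 0.289. Of the 12 CAR markers 11 were lower in males in the fit. With their mean log2 level as a covariate, chosen after seeing the data, the log2 fold changes were 0.20 for Igfbp4, -0.12 for Igfbp7 and 0.045 for Igfbp2. The ratio of Igfbp4 to Cxcl12 in CPM, chosen after both were seen, stayed between 0.336 and 0.411 in the 6 libraries while Igfbp4 itself spanned 2.75-fold. Its means were 0.376 ± 0.0341 in females and 0.380 ± 0.0269 in males (SD, n = 3 each). The log2 fold changes of the 12 CAR markers ran from -1.69 (Adipoq) to 0.61 (Hp), with Cxcl12 at -0.43. This ratio thus depends on the marker picked, and Igfbp4 was set against no other CAR marker. Igfbp7 over Cxcl12 also overlapped between the sexes, at 0.0373, 0.0570 and 0.0439 in females and 0.0434, 0.0389 and 0.0399 in males. Its ratio to the single endothelial marker Cdh5 did not overlap, at 2.65, 3.94 and 3.16 in females and 4.64, 5.56 and 4.76 in males. Cdh5 was picked from 20 endothelial markers whose log2 fold changes ran from -1.44 (Flt4) to -0.095 (Erg), with Cdh5 at -1.17. The outcome may thus differ with the marker, and ratios of Igfbp7 to the other endothelial markers were not computed.

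Igfbp5, though its replicates were ordered alike within each sex, and Igfbp3 departed from this shared profile in their ratios to Cxcl12. These ratios were likewise chosen after the levels were seen. Igfbp5 over Cxcl12 was 0.252, 0.244 and 0.335 in females and 0.190, 0.227 and 0.142 in males, without overlap. The result depends on the marker picked. Cxcl12 had a log2 fold change of -0.43, but the CAR markers ran from -1.69 (Adipoq), below that of Igfbp5, to 0.61 (Hp). Male replicate 3 set Igfbp5 apart from Cxcl12 most plainly, since Igfbp4, Igfbp7 and Igfbp2 were high there and Igfbp5 was at 272 CPM. The mean of the 20 endothelial markers, all lower in males in the fit, was the nearest list to Igfbp5, at an RMS difference of 0.266 against 0.357 for the CAR list and 0.687 for a flat profile. With the mean log2 level of the endothelial markers as a covariate, the log2 fold change of Igfbp5 was -0.062 in place of -1.12. It was -0.48 with the CAR score, -0.885 with the macrophage score and -1.12 with the neutrophil score, all chosen after seeing the data. Since the endothelial sums did not overlap between the sexes, the endothelial markers and sex cannot be told apart. Igfbp3 over Cxcl12 was lower in all females, at 0.00304 to 0.00352, than in any male, at 0.00389 to 0.00713.

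**Figure D5:**
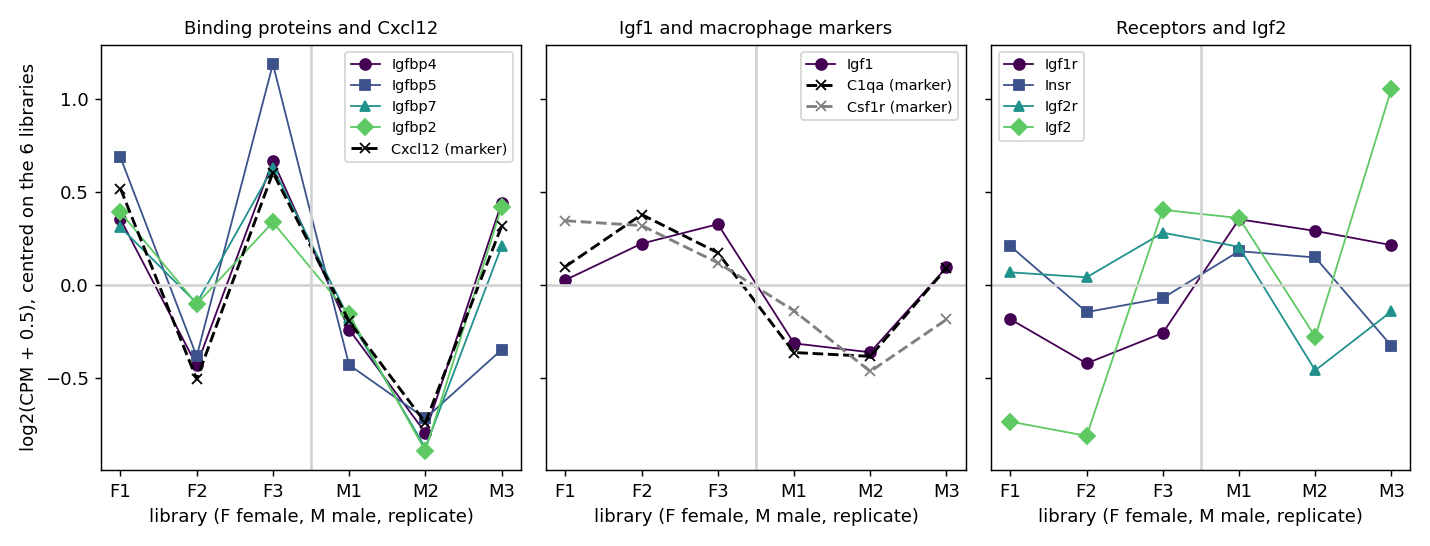
Centred log2(CPM + 0.5) over the 6 libraries (F female, M male, with the replicate number), for 4 binding protein genes with Cxcl12 on the left, Igf1 with the macrophage markers C1qa and Csf1r in the middle, and the receptor genes with Igf2 on the right. Igfbp4, Igfbp7 and Igfbp2 run along the dashed Cxcl12 line, whereas Igfbp5, at 272 CPM in male replicate 3, stays below it there.

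The genes most like a member were sought among 10471 protein-coding genes with a mean of at least 5 CPM, for the 5 members whose log2(CPM + 0.5) spanned at least 1 over the 6 libraries. Nearest to Igfbp4 were Gpm6b, a membrane proteolipid gene, Emp1 and Clmp, at RMS differences of 0.0625, 0.0812 and 0.0932 on the log2 scale. Igfbp7 had Daam2, a formin of Wnt signalling, at 0.0360, then Maged2 at 0.0737 and Gstm2 at 0.0954. For Igfbp5 the nearest were Tspan7 at 0.165, Mme, the gene of the peptidase neprilysin, at 0.169 and Abcc9, a potassium channel subunit gene, at 0.178. Msrb3, Gstt1 and Tspan6 were nearest to Igfbp2, at 0.0882, 0.118 and 0.124. Igf2 had no close match, the nearest being Sfrp4, a secreted Wnt antagonist gene, at 0.341, Mgp, the matrix Gla protein gene, at 0.360 and Serpine2 at 0.406. These genes shared libraries and depth with the members, and none of the 15 was in a marker list used here.

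The rest of the IGF system was listed as 19 further genes, of which 11 passed the filter on low counts. By edgeR's adjusted p 0 of the 11 were called, 3 had an unadjusted p under 0.05 (1 higher and 2 lower in males, beside 9.79% of all genes), and DESeq2 called 0, beside 2.08% of all genes. Their median log2 fold change was -0.05. Ide, the gene of the insulin-degrading enzyme, had 32.3 ± 3.13 CPM in females and 23.5 ± 1.56 CPM in males (SD, n = 3 each), with no overlap and an adjusted p of 0.259 in edgeR. Igfbp6, a binding protein gene that prefers IGF2, was sparse, with 2, 14 and 12 counts in females and 41, 63 and 23 counts in males, again without overlap, and an edgeR adjusted p of 0.342. Ghr, the growth hormone receptor gene, had 13.1 ± 2.67 and 8.02 ± 2.91 CPM (SD, n = 3 each), with overlap and an edgeR adjusted p of 0.401. Igf2bp3, an RNA-binding protein gene, had a log2 fold change of 0.58 without overlap, and Stc1, a gene of the stanniocalcins that inhibit pappalysins, one of -1.02 with overlap.

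Protease genes were the most abundant of the 19 per kilobase, namely Htra1, a secreted protease gene, with 2.56 CPM, Ide, with 2.52, and Pappa, the gene of the pappalysin that cuts IGFBP4, with 1.48. Pappa had 15.6 ± 4.57 CPM in females and 17.0 ± 4.71 CPM in males (SD, n = 3 each), a log2 fold change of 0.13 with a standard error of 0.250. The insulin genes Ins1 and Ins2 had at most 3 and 4 counts in any library, and Igfbp1 had 12 counts in female replicate 3 and 0 in the other 5 libraries, although it lies 3539 bases from Igfbp3. Igfbpl1 and Ghrhr had no count in any library.

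Downstream of the receptors, 29 of 30 signalling genes were tested. None was called by adjusted p in edgeR or in DESeq2, 2 of the 29 had an unadjusted p under 0.05, both lower in males and beside 9.79% of all genes, and the median log2 fold change was -0.01. These 2 were Inppl1, the gene of the lipid phosphatase SHIP2, with 33.3 ± 1.79 CPM in females and 25.3 ± 1.99 CPM in males, and Grb10, an imprinted gene whose product inhibits both receptors, with 8.03 ± 2.33 and 4.88 ± 0.186 CPM (SD, n = 3 each). Neither overlapped between the sexes, and their edgeR adjusted p-values were 0.303 and 0.361. Pik3cb, a PI3 kinase catalytic subunit gene, had 24.5 ± 2.79 CPM in females and 29.1 ± 1.49 CPM in males (SD, n = 3 each), without overlap and with an edgeR adjusted p of 0.575. Eif4ebp1, a translation repressor gene under mTOR, overlapped between the sexes with a log2 fold change of 0.19. The adaptor gene Grb2 and the kinase gene Akt1 were among the most abundant per kilobase, with 47.7 and 24.7 CPM. The receptor substrates, which pass the signal on, were far lower, with 0.643 for Irs1 and 1.19 for Irs2, and had log2 fold changes of -0.26 and 0.10.

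Growth hormone signalling, a known inducer of Igf1, was listed as 8 genes, all of them tested and Ghr among them. None was called by edgeR's adjusted p, 2 had an unadjusted p under 0.05 (1 in each direction, beside 9.79% of all genes), and DESeq2 called 1, beside 2.08% of all genes. That gene was Socs3, a feedback inhibitor of cytokine receptors, with 10.1, 8.48 and 9.65 CPM in females and 15.6, 20.5 and 14.9 CPM in males. It did not overlap between the sexes, and its log2 fold change was 0.85 with a standard error of 0.175, an adjusted p of 0.115 in edgeR and 0.00135 in DESeq2. Neutrophil markers were likewise higher in males, and their part in the Socs3 difference was not tested. Stat5a had a log2 fold change of -0.28, Cish 0.24 and Socs1 0.24, all with overlap. Socs2, a feedback gene that STAT5 induces, had 16.6 ± 2.703 CPM in females and 16.6 ± 1.48 CPM in males (SD, n = 3 each). Stat5b, Jak2 and Stat5a, with 13.8, 9.18 and 4.17 CPM per kilobase, were the most abundant of the list.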

How the data were processed

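RNA from purified tibial BECs of 12-week-old mice was sequenced in 3 female and 3 male libraries. The authors deposited whole-number read counts per gene and library, without normalization or pooling. The labels' processing notes name TopHat2 2.0.11, featureCounts and the builds mm9 and NCBIM37, whereas the paper names STAR, featureCounts and GRCm39, and the library kit and read length differ too. Which applies was not tested. The labels give tibia and c57/Bl6, used here, where the paper's methods name tibiae with femurs and C57BL/6J. Strand use in counting is not given in the sources used here, so overlapping genes may share reads.

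Symbols, GRCm39 positions and exon lengths came from GENCODE M39, which held 31073 of the 37991 identifiers. Counts were fitted for males over females with edgeR 4.0.16 in R 4.3.3 (TMM, default filter on low counts, robust quasi-likelihood fit, Benjamini-Hochberg adjustment over 19480 genes, two-sided). The fit was tested on simulated data. Alternatives were DESeq2 1.42.0, other scalings and filters, edgeR without robust estimation, the replicate block, marker scores as covariates, and dropping each library in turn.

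The members and all gene lists were chosen with earlier results of these data known. Beside the members, the rule named from each of 3 IGF system lists every called gene, or the 5 with the smallest p, and the 3 most abundant per length. For members spanning at least 1 on the log2 scale, it also named the 3 genes nearest in profile. A gene that this rule names is not reported here. Igfbp1, Ins1, Ins2, Igfbpl1, Ghrhr, Irs1, Irs2, Socs2 and the neighbours of members were added after their values were seen. Promoters came from RefSeq (GRCm38.p6), and none was at hand here for Insr.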

Additional observations from a re-analysis of the deposited data

How the results depend on the processing

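The sign of the members' log2 fold changes was kept in 161 of 180 alternatives, though some sizes came close to 0, and none of the 19 reversals was a call. Insr lay between -0.079 and 0.16 when a library was left out, with 4 reversals. With the endothelial marker score as a covariate, Insr was -0.10, Igfbp2 0.57, Igfbp4 0.73 and Igfbp7 0.28, while Igfbp5 moved from -1.12 to -0.062 and Igf2r from -0.24 to -0.0031 without reversing, and Igf2 grew to 2.13 and Igfbp3 to 0.91. Scores chosen after seeing the data gave -0.013 for Insr, 0.045 for Igfbp2 and 0.20 for Igfbp4 (CAR, with Igf2 at 1.49 and Igfbp3 at 0.66), 0.056 for Igf1, 0.20 for Igf2r, -0.45 for Insr, 1.18 for Igfbp2, 0.69 for Igfbp4 and 0.49 for Igfbp7 (macrophage, with Igf2 at 2.21), and -0.081 for Igf2 and 0.093 for Igf2r (neutrophil, with Insr at 0.49). The cause was not tested.

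Of all genes, 8 passed in edgeR's quasi-likelihood test, 14 with total counts alone, 98 with no filter, 359 with DESeq2, 3 with the macrophage score and 3 with the neutrophil score. Leaving out a library gave 5 to 96, with 5 without female replicate 2 and 96 without male replicate 3. DESeq2 called 1 member (Igf1r) and 1 growth hormone gene (Socs3). Fitted with a replicate block, 428 genes passed, among them 2 members (Igfbp5, adjusted p = 0.0417, and Igfbp7, adjusted p = 0.0205), 1 further IGF gene (Ghr, adjusted p = 0.0456) and 2 growth hormone genes (Socs3, adjusted p = 0.0271, and Ghr). Over 18 alternatives the adjusted p lay between 0.0284 and 0.9999 for Igf1r, between 0.0417 and 0.9999 for Igfbp5 and between 0.0205 and 1 for Igfbp7. The labels show no pairing of the samples, and the deviations of same-numbered libraries correlated at 0.248, 0.0613 and 0.361, while male replicate 2 correlated more with female replicate 1, at 0.162. Depth limits the sparse genes, with as few as 2 counts in a library for Igfbp6, 9 for Stc1, 42 for Igfbp2 and 72 for Igf2.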

Other observations

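H19, a noncoding RNA gene expressed from the maternal allele, lies 70545 bases from Igf2 on chromosome 7. It had 4, 26 and 68 counts in female replicates 1, 2 and 3 and 49, 6 and 8 counts in male replicates 1, 2 and 3, so its highest library was female replicate 3. Igf2 was highest in male replicate 3, with 297 counts. Within females both genes were highest in replicate 3, but H19 was lowest in replicate 1 and Igf2 in replicate 2. Within males both were lowest in replicate 2, where H19 had only 6 counts beside 8 in replicate 3, but H19 was highest in replicate 1. Airn, the noncoding gene that lies across Igf2r on the opposite strand, had 8 to 62 counts where Igf2r had 989 to 1830.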
